A study of Mus musculus with 8 samples.

Results

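The 7 genes described here encode the Id proteins Id2 and Id3, the E proteins E2A (Tcf3), E2-2 (Tcf4) and HEB (Tcf12), and the HMG-box factors LEF-1 (Lef1) and TCF-1 (Tcf7). They were taken by name from a table of 27179 gene identifiers, with earlier results of these data known. All 7 passed the filter on low counts that left 13794 genes for testing. Reads were counted per gene in RNA from thymic natural killer T (NKT) cells of C57BL/6 mice, in 4 libraries of Ezh2-KO cells and 4 of WT cells. CD44 and NK1.1, both surface proteins, defined 3 subsets, commonly ordered from CD44- NK1.1- through CD44+ NK1.1- to CD44+ NK1.1+. Each genotype had 2 biological replicates of CD44+ NK1.1- cells and 1 library of each other subset. Ezh2 encodes the methyltransferase of Polycomb repressive complex PRC2. The labels call the mutant Ezh2-KO and do not state the allele, the Cre driver, the age of the mice or whether animals were pooled.

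E proteins are basic helix-loop-helix factors that bind DNA as dimers at the E-box. Id proteins carry the dimerization domain but no DNA-binding region, so they hold E proteins in dimers that cannot bind. In thymocytes E proteins drive early T cell genes and receptor rearrangement, HEB is needed for the NKT lineage, and Id2 and Id3 shape which NKT cells accumulate. TCF-1 and LEF-1 bind a different motif, recruit beta-catenin or TLE corepressors, and are needed for normal NKT cell numbers in mice. The names are easily confused. Tcf3, Tcf4 and Tcf12 here are the E protein genes with Entrez IDs 21423, 21413 and 21406, not Tcf7l1 and Tcf7l2, whose proteins are also called TCF-3 and TCF-4.

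The sequences upstream of Id2, Id3 and Lef1 are shown because Id2 and Lef1 differed between genotypes, Id3 is the paralog of Id2, and E-boxes and TCF/LEF sites are what the encoded proteins bind. Each run is the 250 bases before a RefSeq transcription start of mouse build GRCm38.p6, read 5′ to 3′ on the gene's strand. Capitals mark an E-box, CANNTG, or a TCF/LEF core, CTTTGA or TCAAAG, searched on both strands.
Id2, chr12:25096093-25096342, minus strand: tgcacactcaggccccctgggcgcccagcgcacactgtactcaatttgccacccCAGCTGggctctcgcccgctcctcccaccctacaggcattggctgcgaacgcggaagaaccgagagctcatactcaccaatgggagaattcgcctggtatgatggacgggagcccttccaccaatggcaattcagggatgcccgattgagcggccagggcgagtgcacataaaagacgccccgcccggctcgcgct
Id3, chr4:136143572-136143821, plus strand: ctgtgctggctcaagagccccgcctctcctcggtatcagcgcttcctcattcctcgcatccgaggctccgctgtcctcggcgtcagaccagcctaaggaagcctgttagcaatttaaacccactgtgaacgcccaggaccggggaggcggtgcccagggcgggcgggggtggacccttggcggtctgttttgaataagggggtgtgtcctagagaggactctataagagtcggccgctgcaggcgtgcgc
Lef1, first start, chr3:131110047-131110296, plus strand: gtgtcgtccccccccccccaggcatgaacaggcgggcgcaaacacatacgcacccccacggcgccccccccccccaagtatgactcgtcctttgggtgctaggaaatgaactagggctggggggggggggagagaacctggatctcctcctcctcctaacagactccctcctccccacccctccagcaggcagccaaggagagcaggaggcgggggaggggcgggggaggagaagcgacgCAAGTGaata
Lef1, internal start, chr3:131156044-131156293, plus strand: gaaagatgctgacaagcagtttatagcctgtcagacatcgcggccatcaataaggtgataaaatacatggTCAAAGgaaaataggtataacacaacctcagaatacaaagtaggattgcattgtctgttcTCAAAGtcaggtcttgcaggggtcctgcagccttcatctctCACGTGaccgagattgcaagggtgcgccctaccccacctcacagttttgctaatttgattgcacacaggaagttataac
The Id2 window held 1 E-box 196 bases before the start and no TCF/LEF core. The Id3 window held neither motif. Of 4 Lef1 windows in the table, 2 are shown, the first and the only one with a TCF/LEF core; the other two held E-boxes alone. The window at the first Lef1 start held 1 E-box 10 bases before it, and the window at the internal start held 1 E-box and 2 TCF/LEF cores, 180 and 120 bases before it. Of 32851 promoter windows in the same table, 66.2% held an E-box and 13.8% a TCF/LEF core. Windows were listed for 6 of the 7 genes. The counts cover whole genes and do not separate transcripts from the different Lef1 starts.

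Library depth was 20308745 to 22995090 counts, and 3 counts corresponded to 0.1305 to 0.1477 CPM, the count scaled to the library total. Levels below are CPM after TMM scaling, and levels of different genes are set side by side only as CPM per kilobase of the gene length in the deposited table. Ezh2 RNA stood at 78.4 CPM in the Ezh2-KO CD44- NK1.1- library, 83.3 and 77.9 CPM in the Ezh2-KO CD44+ NK1.1- libraries and 40.4 CPM in the Ezh2-KO CD44+ NK1.1+ library, against 109, 113, 136 and 57.2 CPM in the matching WT libraries. It was lower in Ezh2-KO in every subset but still present, and whole-gene counts do not show which exons the reads covered. All 18 NKT markers reached 1 CPM in every library, with Zbtb16, which encodes the NKT factor PLZF, at 114 CPM or more. Of 8 markers of plasmacytoid dendritic cells, 3 stayed below 1 CPM in every library, among them Siglech at 0.453 CPM or less, but Bst2 reached 132 CPM, Pacsin1 154 CPM and Ccr9 197 CPM, and the list summed to 352 to 480 CPM in Ezh2-KO and 362 to 448 CPM in WT. The 8 B cell markers summed to 59.9 to 93.6 CPM in Ezh2-KO and 78.2 to 121 CPM in WT, most of it Blk, which is also a gamma-delta T cell marker. Ncr1 of NK cells reached 6.79 CPM in Ezh2-KO and 4.73 CPM in WT CD44+ NK1.1+ cells. The 10 NK and innate lymphoid markers together came to 475, 569, 567 and 1760 CPM in the Ezh2-KO libraries and 450, 689, 572 and 1033 CPM in the WT libraries, in order of subset.

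WT CD44+ NK1.1- replicate 1 stood apart from its partner. Its 20 immediate early genes, which respond to stimulation and handling, summed to 4699 CPM, against 1493 CPM in WT replicate 2, and 1379 and 1275 CPM in the Ezh2-KO replicates. Klrb1c, which encodes NK1.1, was at 217 CPM in it and 68.5 CPM in WT replicate 2, with 50.04 and 41.7 CPM in the Ezh2-KO replicates. Of genes with enough counts to compare, 219 of 10117 differed more than 2-fold between the WT replicates and 6 of 10167 between the Ezh2-KO replicates. When either WT replicate is left out, the spread comes from the Ezh2-KO pair alone and more genes are called, and such values are given beside the results they change. Because the libraries are bulk RNA, fewer cells of a type and less RNA per cell cannot be told apart.

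**Figure D1:**
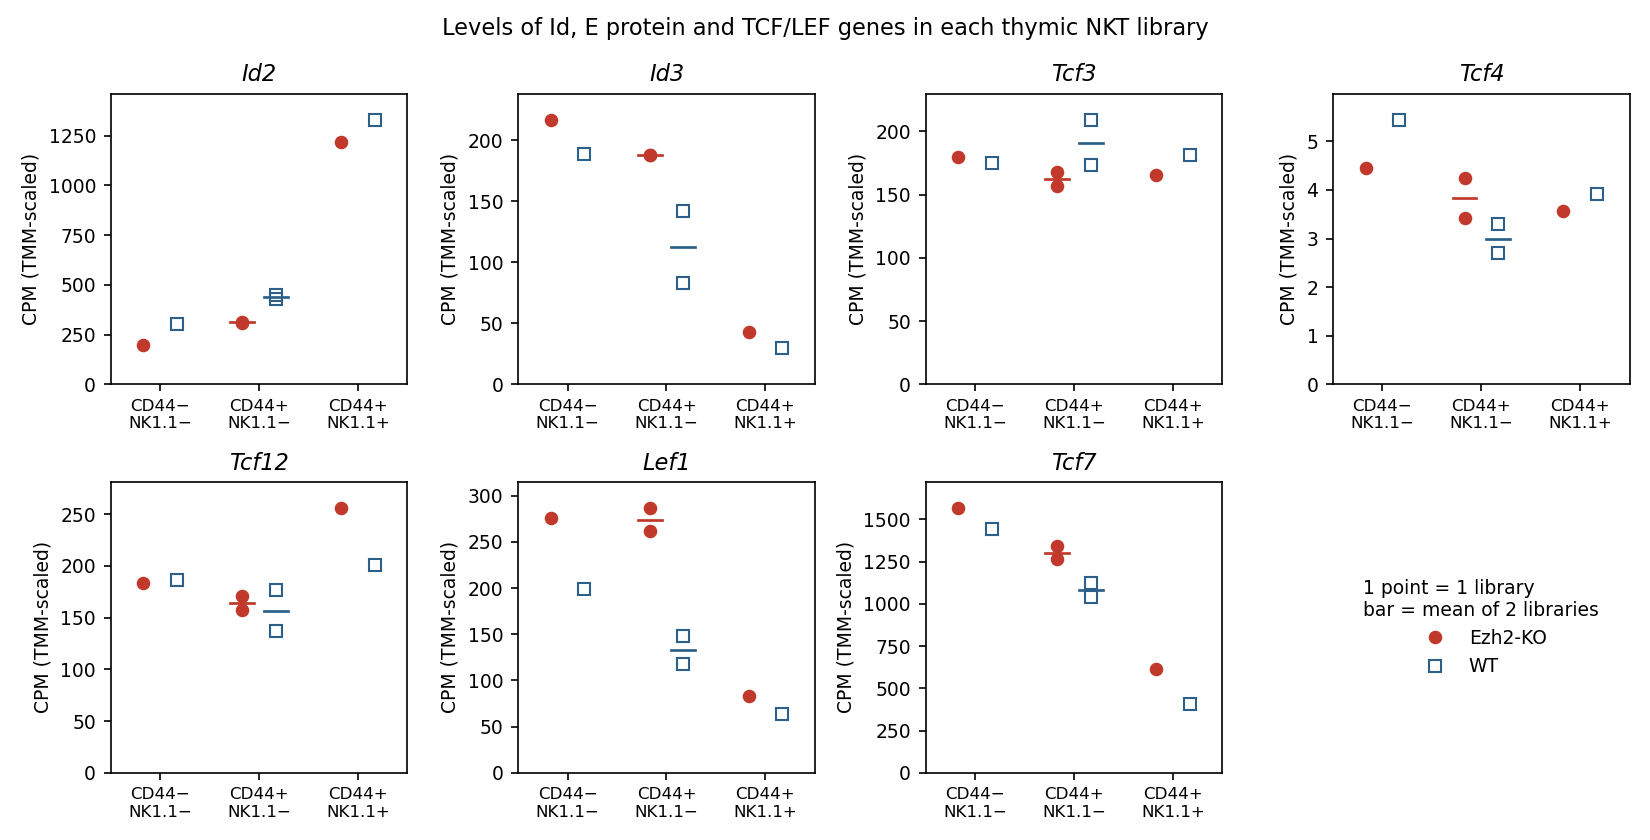
Level of each gene (vertical axis, CPM after TMM scaling, from 0) in the 3 subsets (horizontal axis), with 1 point per library, Ezh2-KO as filled circles left of WT as open squares, and a bar at the mean of 2 libraries. Id2 was highest and Id3, Lef1 and Tcf7 lowest in CD44+ NK1.1+ cells of both genotypes, while Tcf3 stayed between 157 and 209 CPM.

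Tcf7 and Id2 gave the most RNA per length of the 7 genes in both CD44+ subsets, and their order turned round in the NK1.1+ subset. In CD44- NK1.1- cells Tcf7 was first with 699 CPM per kilobase in Ezh2-KO and 646 in WT, while Id2 had 156 in Ezh2-KO and 239 in WT and Id3 227 in Ezh2-KO and 198 in WT, so Id3 came before Id2 in Ezh2-KO. In CD44+ NK1.1- cells Tcf7 averaged 582 ± 25.1 CPM per kilobase in Ezh2-KO and 483 ± 27.5 in WT (SD, n = 2 each), followed by Id2 at 245 ± 2.03 in Ezh2-KO and 344 ± 11.98 in WT. Id3 came next with 197 ± 0.292 CPM per kilobase in Ezh2-KO and 118 ± 43.9 in WT. Lef1 stood at 111 ± 7.03 CPM per kilobase in Ezh2-KO and 54.0 ± 8.69 in WT, Tcf3 at 45.8 ± 2.10 in Ezh2-KO and 53.9 ± 7.14 in WT, and Tcf12 at 32.4 ± 1.92 in Ezh2-KO and 31.0 ± 5.54 in WT. In WT, Lef1 and Tcf3 did not differ beyond their spread, whereas in Ezh2-KO the Lef1 replicates lay above those of Tcf3. Tcf4 was far below the others, at 0.499 CPM per kilobase in Ezh2-KO and 0.391 in WT, so nearly all E protein RNA came from Tcf3 and Tcf12. In CD44+ NK1.1+ cells Id2 was first with 957 CPM per kilobase in Ezh2-KO and 1045 in WT, and Tcf7 second with 274 in Ezh2-KO and 182 in WT.

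Id2 was the gene of this group with the largest gain in NK1.1+ cells. Its level was 199 CPM in CD44- NK1.1-, 313 and 309 CPM in CD44+ NK1.1- and 1217 CPM in CD44+ NK1.1+ cells of Ezh2-KO mice. In WT mice it was 304 CPM in CD44- NK1.1-, 427 and 448 CPM in CD44+ NK1.1- and 1329 CPM in CD44+ NK1.1+ cells. Both genotypes therefore had the same order of subsets, with no overlap between them within a genotype. Averaged over genotypes, Id2 was 3.45-fold higher in CD44+ NK1.1+ than in CD44+ NK1.1- cells (log2 difference 1.79, SE 0.0738, adjusted p = 0.000283, quasi-likelihood test of edgeR) and 5.17-fold higher than in CD44- NK1.1- cells (log2 difference 2.37, adjusted p = 0.000155, edgeR). The smaller rise in CD44+ NK1.1- over CD44- NK1.1- cells was also called (log2 difference 0.58, SE 0.0789, adjusted p = 0.0201, edgeR). That call was lost in WT libraries alone (log2 difference 0.52, adjusted p = 0.0908, edgeR), in Ezh2-KO libraries alone (0.65, adjusted p = 0.117) and without Ezh2-KO replicate 1 or 2 (adjusted p = 0.201 and 0.190).

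Id3 went the other way between subsets. It stood at 217 CPM in CD44- NK1.1-, 188 and 188 CPM in CD44+ NK1.1- and 43.1 CPM in CD44+ NK1.1+ cells of Ezh2-KO mice. In WT mice it stood at 189 CPM in CD44- NK1.1-, 83.0 and 142 CPM in CD44+ NK1.1- and 29.5 CPM in CD44+ NK1.1+ cells. The CD44+ NK1.1+ library was the lowest of each genotype. Id3 fell by 2.03 on the log2 scale in CD44+ NK1.1+ relative to CD44+ NK1.1- cells, a 4.08-fold difference (SE 0.242, adjusted p = 0.00427, edgeR), and by 2.504 relative to CD44- NK1.1- cells (adjusted p = 0.00257, edgeR). The step between CD44+ NK1.1- and CD44- NK1.1- cells was -0.48 and not called (adjusted p = 0.388, edgeR). It stood at -0.31 without WT replicate 1 and at -0.70 without WT replicate 2. Both were called, with the spread from the Ezh2-KO pair alone.

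The E protein genes varied less over the libraries than the Id genes. Tcf3 had 179 CPM in CD44- NK1.1-, 168 and 157 CPM in CD44+ NK1.1- and 166 CPM in CD44+ NK1.1+ cells of Ezh2-KO mice, and 175, 209, 173 and 181 CPM in the matching WT libraries. Its highest library was 1.33-fold above its lowest, and its log2 difference from the preceding subset was -0.01 in CD44+ NK1.1- cells (adjusted p = 0.986, edgeR) and -0.02 in CD44+ NK1.1+ cells (adjusted p = 0.884), with the sign turning in several alternatives. Tcf12 had 183 CPM in CD44- NK1.1-, 171 and 157 CPM in CD44+ NK1.1- and 256 CPM in CD44+ NK1.1+ cells of Ezh2-KO mice, and 187, 177, 137 and 201 CPM in the matching WT libraries. Its highest library in each genotype was CD44+ NK1.1+, and the difference from CD44+ NK1.1- cells was called (log2 difference 0.50, SE 0.119, adjusted p = 0.0242, edgeR). With library size alone as the scaling it was 0.36 (adjusted p = 0.0540, edgeR), in WT libraries alone 0.36 (adjusted p = 0.226), and without Ezh2-KO replicate 1 or 2 the adjusted p was 0.0877 and 0.119. Tcf4, with 4.45, 4.25, 3.42 and 3.57 CPM in the Ezh2-KO libraries and 5.44, 3.29, 2.71 and 3.91 CPM in the WT libraries in order of subset, rested on 63 to 121 reads a library and was not called between subsets with all libraries. Its step between CD44+ NK1.1- and CD44- NK1.1- cells was -0.54 (adjusted p = 0.238, edgeR). Without WT replicate 1 or 2 that step was -0.61 and -0.47, called with the spread from the Ezh2-KO pair alone. The Tcf4 difference between CD44+ NK1.1+ and CD44- NK1.1- cells was -0.40 and was called without WT replicate 1 or 2. Tcf12 was called there in the same way (0.29 in each case), and between CD44+ NK1.1- and CD44- NK1.1- cells without WT replicate 1 (-0.30).

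Lef1 and Tcf7 were lowest in NK1.1+ cells. Lef1 had 275 CPM in CD44- NK1.1-, 286 and 262 CPM in CD44+ NK1.1- and 82.7 CPM in CD44+ NK1.1+ cells of Ezh2-KO mice, and 199, 118, 148 and 63.4 CPM in the matching WT libraries. In Ezh2-KO the first 2 subsets overlapped, while in WT both CD44+ NK1.1- libraries lay below the CD44- NK1.1- library. Lef1 fell by 1.398 on the log2 scale in CD44+ NK1.1+ relative to CD44+ NK1.1- cells, a 2.64-fold difference (SE 0.124, adjusted p = 0.00119, edgeR). Its step between CD44+ NK1.1- and CD44- NK1.1- cells was -0.30 and not called (adjusted p = 0.288, edgeR). Without WT replicate 1 or 2 that step was -0.22 and -0.38, called with the spread from the Ezh2-KO pair alone. Tcf7 had 1564 CPM in CD44- NK1.1-, 1342 and 1262 CPM in CD44+ NK1.1- and 613 CPM in CD44+ NK1.1+ cells of Ezh2-KO mice, and 1445, 1037, 1125 and 408 CPM in the matching WT libraries. Its level stepped down at each subset in both genotypes without overlap within a genotype. The second step was called, at -1.25 (SE 0.0881, adjusted p = 0.000714, edgeR), and the first was not, at -0.34 (adjusted p = 0.110). Without WT replicate 1 or 2 the first step was -0.31 and -0.37, called with the spread from the Ezh2-KO pair alone.

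Of the 7 genes, 5 were called between CD44+ NK1.1+ and CD44+ NK1.1- cells, Id2 and Tcf12 higher and Id3, Lef1 and Tcf7 lower, where 32.5% of all tested genes were called (16.4% higher and 16.1% lower). Between CD44+ NK1.1+ and CD44- NK1.1- cells 4 were called, against 32.2% of all tested genes, and between CD44+ NK1.1- and CD44- NK1.1- cells 1 was called, against 2.66%. Between CD44+ NK1.1+ and CD44+ NK1.1- cells the median absolute log2 difference over all tested genes was 0.33, while Id2, Id3, Lef1 and Tcf7 each moved further. Scaling by library size alone shifted the median of all genes in that comparison to -0.13, and Id2 then stood at 1.65, Id3 at -2.16, Lef1 at -1.53 and Tcf7 at -1.38. Klrb1c rose with Id2, at 1447 CPM in CD44+ NK1.1+ and 50.04 and 41.7 CPM in CD44+ NK1.1- cells of Ezh2-KO mice, and 1146, 217 and 68.5 CPM in the matching WT libraries.

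**Figure D2:**
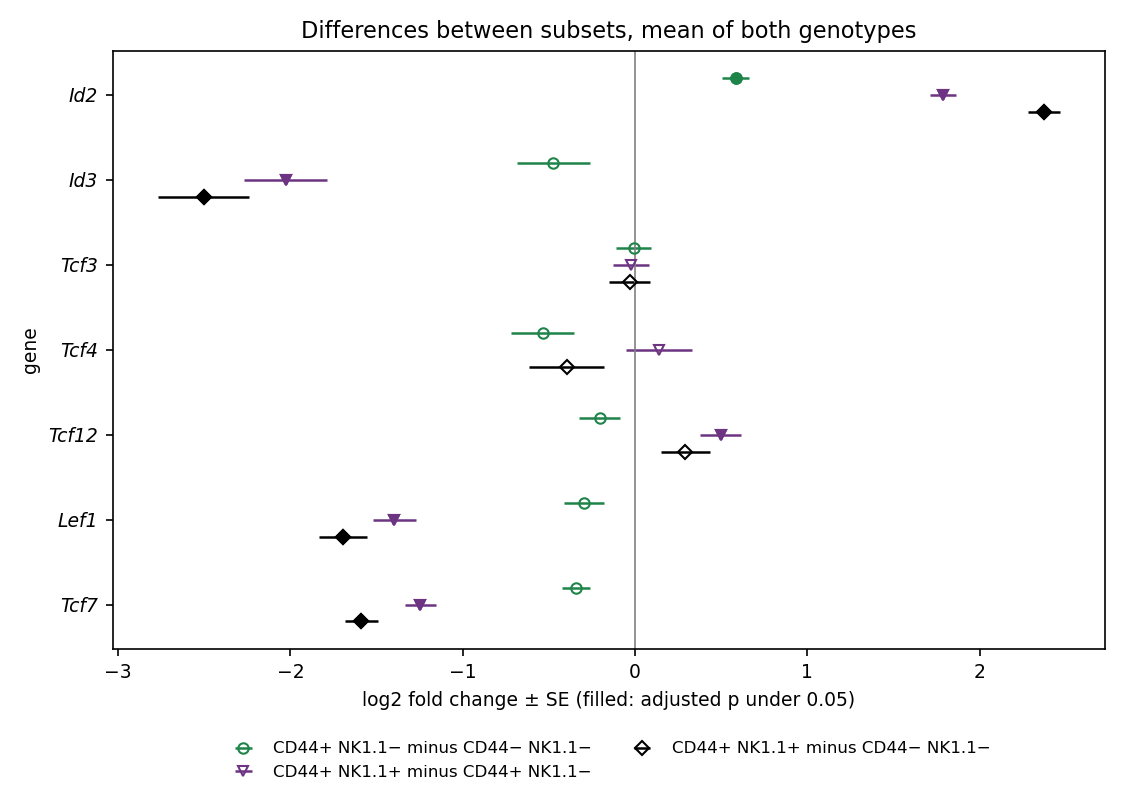
Log2 fold change between subsets with its SE (horizontal axis), averaged over both genotypes, for each of the 7 genes (vertical axis), with filled symbols for an adjusted p under 0.05. Id2 lies right of 0 in all 3 comparisons, Id3, Lef1 and Tcf7 lie left, and in the 2 comparisons with CD44+ NK1.1+ cells the E protein genes lie nearer 0 than those genes.

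Between genotypes, Lef1 was higher and Id2 lower in Ezh2-KO CD44+ NK1.1- cells, the subset with replicates. Lef1 averaged 274 ± 17.3 CPM in Ezh2-KO and 133 ± 21.4 CPM in WT (SD, n = 2 each), and the groups did not overlap (log2 fold change 1.04, SE 0.134, adjusted p = 0.0121, edgeR). Id2 averaged 311 ± 2.58 CPM in Ezh2-KO and 437 ± 15.2 CPM in WT, again without overlap (log2 fold change -0.49, SE 0.0889, adjusted p = 0.0353, edgeR). These were 2 of the 7 genes, where 4.94% of all tested genes were called. Without Ezh2-KO replicate 1 or 2 both calls were lost, with Lef1 at 0.98 and 1.11 (adjusted p = 0.123 and 0.0819, edgeR) and Id2 at -0.50 and -0.48 (adjusted p = 0.435 and 0.478). Without WT replicate 1, the library that stood apart, Lef1 was at 0.89 and Id2 at -0.53, and both were called, with the spread taken from the Ezh2-KO pair alone.

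The other genes were not called there by edgeR with all libraries. Id3 averaged 188 ± 0.279 CPM in Ezh2-KO and 113 ± 41.8 CPM in WT (SD, n = 2 each), and its log2 fold change of 0.74 (SE 0.250, adjusted p = 0.186, edgeR) rested on WT replicates 1.71-fold apart. DESeq2 called it (0.73, adjusted p = 0.0275), and its value was 0.40 without WT replicate 1 and 1.18 without WT replicate 2. Without either WT replicate 5 of the 7 genes were called, with the spread from the Ezh2-KO pair alone. Tcf7 averaged 1302 ± 56.2 CPM in Ezh2-KO and 1081 ± 61.6 CPM in WT, without overlap (log2 fold change 0.27, SE 0.0959, adjusted p = 0.188, edgeR). Tcf3 averaged 162 ± 7.45 CPM in Ezh2-KO and 191 ± 25.3 CPM in WT (-0.24, adjusted p = 0.335, edgeR), Tcf12 164 ± 9.72 CPM in Ezh2-KO and 157 ± 28.1 CPM in WT (0.07, adjusted p = 0.841), and Tcf4 had 4.25 and 3.42 CPM in Ezh2-KO and 3.29 and 2.71 CPM in WT (0.35, adjusted p = 0.433). The median log2 fold change of the 7 genes was 0.27, against -0.01 over all tested genes.

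Over the 3 subsets together, with subset as a term, Lef1 was higher by 0.74 (SE 0.139, adjusted p = 0.0164, edgeR), Tcf7 higher by 0.31 (SE 0.0810, adjusted p = 0.0466) and Id2 lower, at -0.43 (SE 0.0811, adjusted p = 0.0141). These were 3 of the 7 genes, where 11.3% of all tested genes were called (6.43% higher and 4.89% lower). In each of the 3 subsets every Ezh2-KO library lay above every WT library for Lef1, Tcf7 and Id3, and below for Id2. The CD44- NK1.1- and CD44+ NK1.1+ subsets had 1 library a side, and the share of all tested genes with such an order was not counted. Id3 stood at 0.56 and was not called (adjusted p = 0.0912, edgeR), although DESeq2 called it (0.55, adjusted p = 0.00631), as did edgeR without WT CD44+ NK1.1- replicate 1 (0.37, adjusted p = 0.00356). The Tcf7 call was near the threshold: it was lost with robust=FALSE (adjusted p = 0.0528, edgeR), with the mean of the 3 genotype effects (0.0530) and without any of 6 single libraries (0.0539 to 0.152). Lef1 was no longer called without Ezh2-KO CD44+ NK1.1- replicate 1 or 2 or WT CD44+ NK1.1- replicate 2 (adjusted p = 0.0549, 0.0659 and 0.0552, edgeR), nor Id2 without Ezh2-KO CD44+ NK1.1- replicate 1 or 2 or the Ezh2-KO CD44- NK1.1- library (0.0707, 0.0725 and 0.0514).

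With 1 library a side and the spread borrowed from the replicated groups, no member was called in CD44+ NK1.1+ cells, where 0.95% of tested genes were called, or in CD44- NK1.1- cells, where 0.239% were. Lef1 stood at 0.38 in CD44+ NK1.1+ and 0.47 in CD44- NK1.1- cells, Id2 at -0.13 and -0.61 in the same order, Tcf7 at 0.59 and 0.11, and Id3 at 0.55 and 0.20. Without either WT CD44+ NK1.1- replicate, with the spread from the Ezh2-KO pair alone, Id3, Lef1, Tcf7 and Tcf12 were called in CD44+ NK1.1+ cells and Id2 and Lef1 in CD44- NK1.1- cells, at the same fold changes (adjusted p at most 0.00130, edgeR). Whether the Ezh2-KO effect differed between subsets was tested directly. The Lef1 effect was smaller in CD44+ NK1.1+ than in CD44+ NK1.1- cells by 0.66 on the log2 scale (SE 0.233, unadjusted p = 0.0286 in the edgeR fit), which did not pass after adjustment (adjusted p = 0.99995). It was called at -0.51 without WT replicate 1 (adjusted p = 0.00276) and at -0.84 without WT replicate 2 (2.77e-09), with the spread from the Ezh2-KO pair alone. The Id2 difference was 0.36, called at 0.40 without WT replicate 1 (adjusted p = 0.0318) and at 0.33 without WT replicate 2 (0.0425). The Lef1 effect was also smaller in CD44- NK1.1- than in CD44+ NK1.1- cells, at -0.58 (adjusted p = 0.992, edgeR), and called at -0.42 and -0.75 without WT replicate 1 or 2 (0.0135 and 1.63e-08). Without WT replicate 2 alone, Id3 was also called in both tests, Tcf12 in the first and Tcf3 in the second. With all libraries no member was called in either test of this kind, where 0 and 3 of 13794 genes (0% and 0.0217%) were called by edgeR, 519 and 648 had an unadjusted p under 0.05, and DESeq2 called 24 and 28 genes.

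Genes that are high in NK1.1+ cells also differed between the replicated groups. Tbx21, which encodes the NKT1 factor T-bet, was at 48.7 and 45.8 CPM in Ezh2-KO and 124 and 107 CPM in WT CD44+ NK1.1- cells. Il2rb, an IL-15 receptor chain, was at 364 and 332 CPM in Ezh2-KO and 927 and 627 CPM in WT. Both were called (adjusted p = 0.00342 and 0.0303, edgeR). The NK receptor gene Klra4 was higher in Ezh2-KO, at 7.78 and 7.88 CPM, against 2.12 and 1.33 CPM in WT (adjusted p = 0.00725, edgeR). Its relative Klra8, at 23.5 and 22.9 CPM in Ezh2-KO and 2.71 and 0.387 CPM in WT, was not called (adjusted p = 0.110), nor was the granzyme gene Gzma, at 59.96 and 67.5 CPM in Ezh2-KO and 44.9 and 17.6 CPM in WT (0.378). The 9 gamma-delta T cell markers together came to 1704 and 1627 CPM in Ezh2-KO and 1056 and 1212 CPM in WT, and many of them are also expressed by NKT cells. The part of these genes in the Id2 and Lef1 results was not tested. In CD44+ NK1.1+ cells, where Tbx21 was 356 CPM in Ezh2-KO and 378 CPM in WT, Lef1 was 82.7 CPM in Ezh2-KO and 63.4 CPM in WT and Id2 1217 CPM in Ezh2-KO and 1329 CPM in WT.

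**Figure D3:**
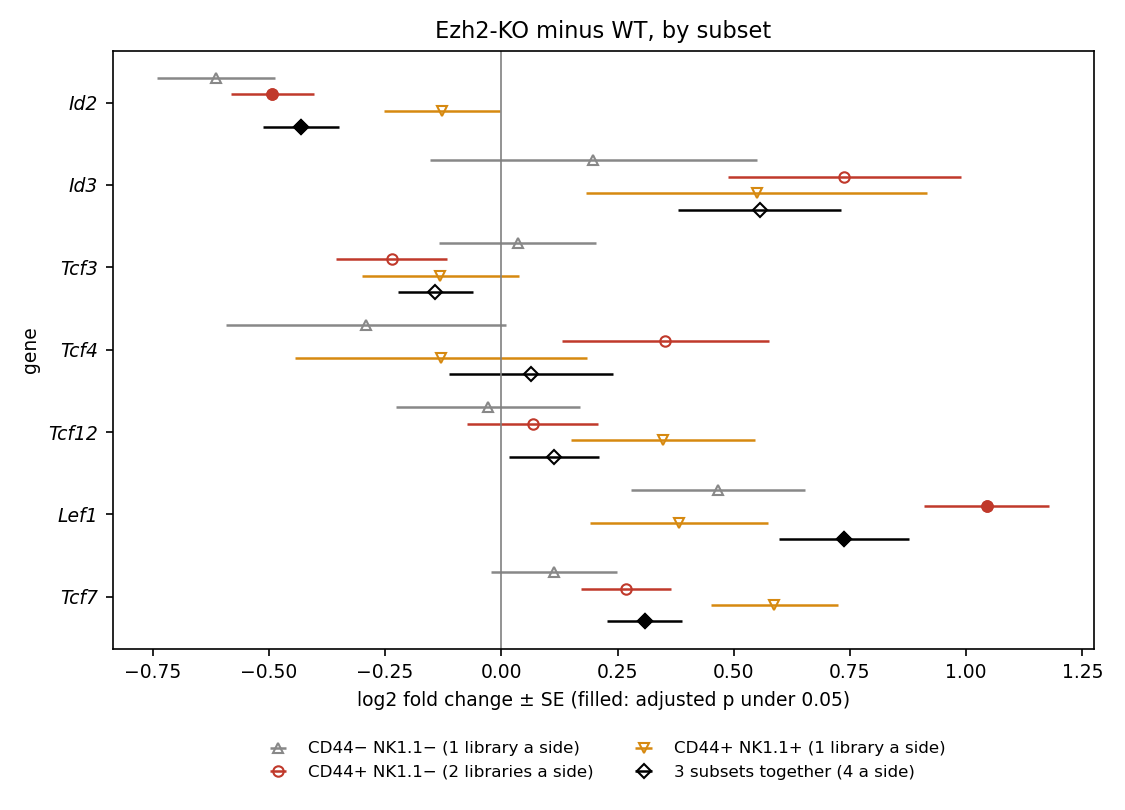
Log2 fold change of Ezh2-KO over WT with its SE (horizontal axis) for each of the 7 genes (vertical axis), in the 3 subsets and over all of them together, with filled symbols for an adjusted p under 0.05. Lef1 and Tcf7 lie right of 0 and Id2 left of 0 in every subset, and the filled symbols are Id2 and Lef1 in CD44+ NK1.1- cells and Id2, Lef1 and Tcf7 over the 3 subsets.

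Ratios within a library do not depend on the scaling between libraries. Id2 over Id3, both per kilobase, was 0.688 in CD44- NK1.1-, 1.25 and 1.23 in CD44+ NK1.1- and 21.1 in CD44+ NK1.1+ cells of Ezh2-KO mice. In WT mice it was 1.21 in CD44- NK1.1-, 3.85 and 2.36 in CD44+ NK1.1- and 33.8 in CD44+ NK1.1+ cells. Every Ezh2-KO library lay below the WT libraries of its subset, and Ezh2-KO CD44+ NK1.1- cells lay near WT CD44- NK1.1- cells. Summed, Id2 and Id3 overlapped between genotypes in CD44+ NK1.1- cells, at 442 ± 2.31 CPM per kilobase in Ezh2-KO and 462 ± 55.9 in WT (SD, n = 2 each). In the subsets with 1 library a side the sum was lower in Ezh2-KO. It was 384 against 437 in CD44- NK1.1- and 1002 against 1076 in CD44+ NK1.1+ cells. The sum of Id over the sum of E protein RNA was 4.39, 5.43, 5.80 and 10.3 in the Ezh2-KO libraries and 5.03, 4.48, 6.58 and 11.8 in the WT libraries, in order of subset. In CD44+ NK1.1- cells the genotypes overlapped in that ratio, and in both genotypes CD44+ NK1.1+ cells were highest.

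The balance of the HMG-box pair also differed. Tcf7 over Lef1 was 6.24, 5.15, 5.30 and 8.15 in the Ezh2-KO libraries and 7.97, 9.68, 8.35 and 7.08 in the WT libraries, in order of subset. In the replicated subset it averaged 5.23 ± 0.105 in Ezh2-KO and 9.02 ± 0.942 in WT (SD, n = 2 each), without overlap, and in CD44+ NK1.1+ cells the order of genotypes was the opposite. Tcf3 over Tcf12 averaged 1.41 ± 0.0188 in Ezh2-KO and 1.75 ± 0.0825 in WT CD44+ NK1.1- cells, also without overlap. The CD44+ NK1.1+ libraries had the lowest value of each genotype, 0.925 in Ezh2-KO and 1.29 in WT. These ratios are of RNA, carry no test, and follow the gene lengths in the deposited table, which do not depend on the transcripts in use.

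**Figure D4:**
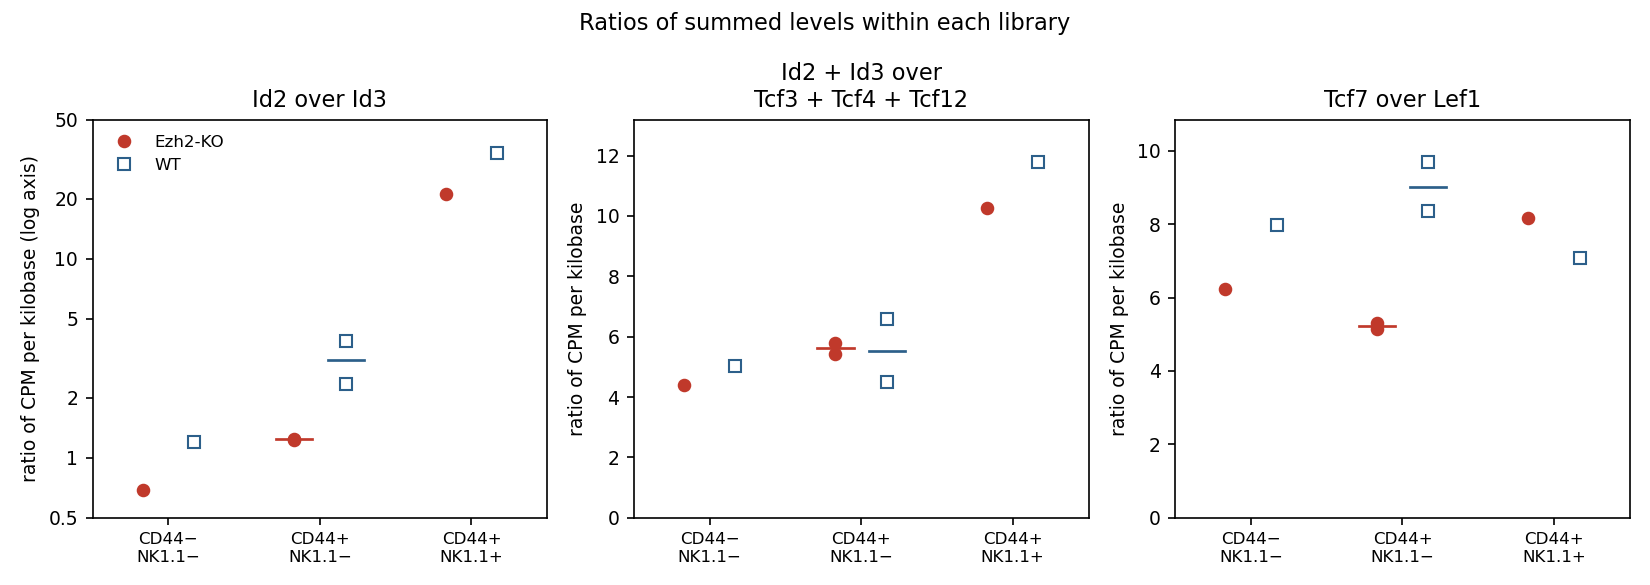
Ratios of CPM per kilobase within each library (vertical axes, the first logarithmic) for Id2 over Id3, for both Id genes over the 3 E protein genes, and for Tcf7 over Lef1, by subset (horizontal axis) with Ezh2-KO left of WT. Id2 over Id3 spans 0.688 to 33.8, and Tcf7 over Lef1 separates the genotypes in CD44+ NK1.1- cells at 5.15 and 5.30 in Ezh2-KO and 9.68 and 8.35 in WT.

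Most of the other helix-loop-helix factors and E protein partners lay under 1 CPM in each library, and several of the rest differed between subsets. Of 23 listed, 10 were tested, Id4 had no reads in any library, which allows up to 0.1477 CPM, and Id1 reached at most 0.451 CPM. None of the 10 was called between genotypes in CD44+ NK1.1- cells (median log2 fold change -0.25, against -0.01 over all genes, and 0.10 without WT replicate 1). Over the 3 subsets Lmo1, a LIM-domain partner, was higher in Ezh2-KO (1.29, adjusted p = 0.0207, edgeR) and Hes1, a Notch-induced repressor, lower (-1.24, adjusted p = 0.0416). Between CD44+ NK1.1+ and CD44+ NK1.1- cells 2 were called higher and 4 lower, against 16.4% and 16.1% of all tested genes, among the lower ones Lmo4, another LIM-domain protein (-1.41, adjusted p = 0.000742, edgeR).

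Among genes that work with TCF-1 and LEF-1 in the Wnt pathway, a few with receptor and corepressor roles differed strongly between genotypes. Of 31 tested, 4 were called higher and 0 lower in Ezh2-KO CD44+ NK1.1- cells (median -0.02, against -0.01 over all genes, of which 3.78% were called higher and 1.16% lower). Rnf43, a ubiquitin ligase that removes Frizzled receptors from the surface, had 103 and 103 CPM in Ezh2-KO and 17.7 and 18.3 CPM in WT (log2 fold change 2.52, adjusted p = 0.000236, edgeR). Fzd6, a Frizzled receptor, had 66.0 and 57.5 CPM in Ezh2-KO and 8.20 and 10.9 CPM in WT (2.69, adjusted p = 0.00134, edgeR). Ctbp2, a corepressor, had 7.35 and 5.85 CPM in Ezh2-KO and 0.271 and 0.602 CPM in WT (3.89, adjusted p = 0.00396, edgeR). The fourth, Fzd3, was low throughout, at 1.15 and 1.17 CPM in Ezh2-KO and 0.0451 and 0.215 CPM in WT. In CD44- NK1.1- cells Rnf43 stood at 143 CPM in Ezh2-KO and 75.7 CPM in WT and Fzd6 at 70.8 CPM in Ezh2-KO and 54.3 CPM in WT, so WT cells held both genes in that subset and had far less in the later ones. Ctnnb1, the beta-catenin gene, had 444 and 433 CPM in Ezh2-KO and 326 and 455 CPM in WT CD44+ NK1.1- cells, overlapping groups. Tcf7l1 stayed at 7.20 CPM or less and Tcf7l2 at 0.193 CPM or less in every library.

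Most listed target genes of TCF-1 and LEF-1 were not called between genotypes. In CD44+ NK1.1- cells 3 of 20 were called higher in Ezh2-KO and 1 lower, against 3.78% higher and 1.16% lower over all tested genes, with a median of 0.17, against -0.01 over all genes. Slamf6, a SLAM receptor used in NKT selection, rose (0.55, adjusted p = 0.0303, edgeR), as did the repressor gene Bcl6 (1.35, adjusted p = 0.0158) and the T-box gene Eomes (5.76, adjusted p = 0.000200), while Cd4 fell (-1.14, adjusted p = 0.00320). Axin2, a feedback gene of the Wnt pathway often read as its output, had 34.1 and 37.0 CPM in Ezh2-KO and 47.3 and 50.7 CPM in WT, and over the 3 subsets it was lower in Ezh2-KO (-0.33, adjusted p = 0.0399, edgeR). At the NK1.1+ step 9 of the 20 were called lower and 4 higher, against 16.1% lower and 16.4% higher over all tested genes (median -0.32, against 0.00). Themis, a T cell receptor signalling protein, fell by 2.06 (adjusted p = 0.000554, edgeR), Ccr7, a homing receptor, fell by 2.83 (adjusted p = 0.00179) and Il4 fell by 2.69 (adjusted p = 0.000421).

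Of the 24 listed E protein target genes, 0 were called higher and 4 lower in Ezh2-KO CD44+ NK1.1- cells, against 3.78% higher and 1.16% lower over all tested genes. Their median was -0.71, against -0.01 over all genes, and it was -0.26 without WT replicate 1 and -0.93 without WT replicate 2. Dtx1, which encodes the Notch regulator Deltex1, fell by 2.11 (adjusted p = 0.000925, edgeR), Notch1 fell by 0.80 (adjusted p = 0.0246), Socs1, a cytokine signalling inhibitor, fell by 0.75 (adjusted p = 0.0440), and Cd4 is shared with the preceding list. Several of these genes stood high in WT replicate 1, such as Rag1 at 18.0 CPM, against 3.78 CPM in WT replicate 2 and 4.34 and 0.450 CPM in Ezh2-KO. Rag1 is also a marker of immature thymocytes, as is Dntt, at 8.78 and 0.810 CPM in Ezh2-KO and 30.9 and 9.42 CPM in WT. The 10 such markers summed to 342 and 311 CPM in Ezh2-KO and 343 and 287 CPM in WT, most of it Rmnd5a. The part of immature thymocytes in these values was not tested. Over the 3 subsets 1 of the 24 targets was called higher and 6 lower, against 6.43% and 4.89% of all tested genes, with a median of -0.57, and -0.25 without WT CD44+ NK1.1- replicate 1. At the NK1.1+ step 7 were called in each direction, against 16.4% of all tested genes higher and 16.1% lower, with Dtx1, Notch1 and Socs1 higher and Zbtb16, Icos and Cxcr5 lower.

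**Figure D5:**
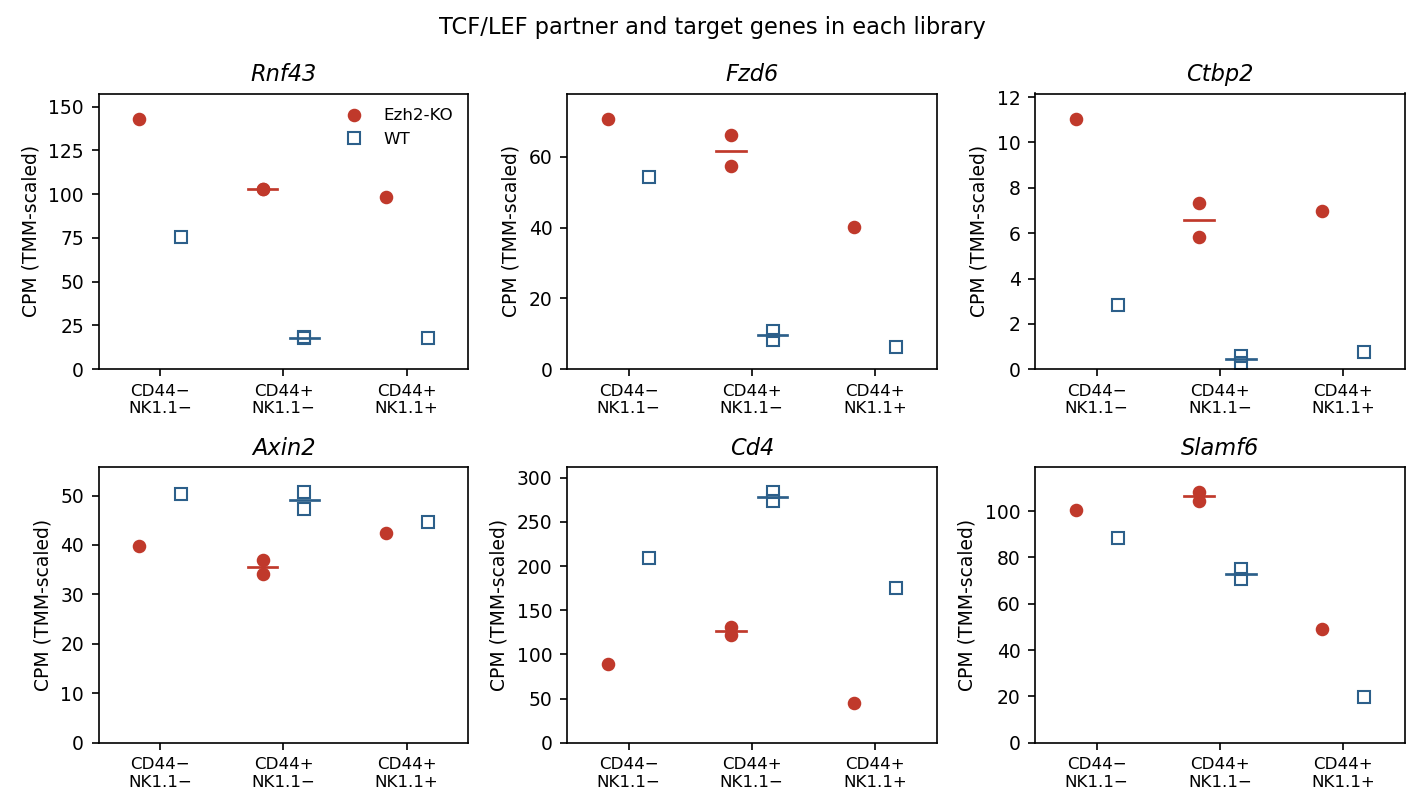
Level of 6 of these partner and target genes, chosen from those named after their values were seen (vertical axis, CPM after TMM scaling, from 0), by subset (horizontal axis), with Ezh2-KO as filled circles left of WT as open squares. Rnf43, Fzd6 and Ctbp2 are low in WT CD44+ cells and higher in the Ezh2-KO libraries of the same subset, and the Ezh2-KO points of Axin2 and Cd4 lie below the WT points of the same subset.

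The genes whose pattern over the 8 libraries lay closest to each member were found by the root mean square difference of centred log2 CPM among 7859 genes. Id2 was closest to Arhgap26 (0.163), Atp2b4 (0.179) and Serpinb6b (0.183), against a median of 0.918 over all candidates. Arhgap26, a GTPase-activating protein, had 16.0, 24.0, 20.03 and 79.8 CPM in the Ezh2-KO libraries and 22.6, 31.8, 30.3 and 73.9 CPM in the WT libraries, in order of subset. Id3 was closest to Wfikkn2 (0.148), Angptl2 (0.164) and P2rx7 (0.203), with a median of 1.05 over candidates. Lef1 was closest to Nav2 (0.119), Emb (0.190) and Pdcd1 (0.205), with a median of 0.802, and Tcf7 to Fmnl3 (0.111), Fam20a (0.117) and Acot11 (0.126), with a median of 0.661. Nav2 had 80.3, 80.2, 81.7 and 28.7 CPM in the Ezh2-KO libraries, in order of subset. In the WT libraries it had 65.8, 31.3, 42.4 and 18.6 CPM. It was picked for its likeness to Lef1, so their shared pattern is not a separate result. Tcf3 was closest to Golga5 (0.0389), Ehmt2 (0.0425) and Safb2 (0.0432), Tcf12 to Slc44a2 (0.0702) and Med13l (0.0756), and Tcf4 to Pde3b (0.106), Notch2 (0.141) and Trgj4 (0.145). Small differences are common for genes that barely vary, and the median over candidates was 0.212 for Tcf3, 0.295 for Tcf12 and 0.332 for Tcf4. Among the members themselves Tcf3 and Tcf12 (0.270) and Lef1 and Tcf7 (0.306) were close, Id3 lay near Lef1 (0.347), and Id2 and Id3 were farthest apart (1.93).

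In the RefSeq annotation of the same build the 7 genes lie at chr12:25093799-25096092 (Id2), chr4:136143822-136145392 (Id3), chr10:80409541-80433976 (Tcf3), chr18:69343429-69687967 (Tcf4), chr9:71844252-72111893 (Tcf12), chr3:131110297-131224357 (Lef1) and chr11:52246527-52283383 (Tcf7), all protein-coding. In the GENCODE annotation an antisense gene, Gm43352, shares 1208 of 8788 exon bases of Lef1 (13.7%). The deposited table gives Lef1 a length of 2460 bases, and whether the shared bases lie in the exons counted was not checked. Where they do, reads of Gm43352 and Lef1 cannot be told apart without a stated strand setting. The other 6 genes shared no exon bases with another annotated gene.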

How the data were processed

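RNA of thymic NKT cells was sequenced in 8 libraries, 4 Ezh2-KO and 4 WT, in 3 subsets. RNeasy Plus columns and TruSeq RNA reagents were used, per the labels' protocols. The values are raw read counts per gene as deposited by the authors, whole numbers in every library, with a gene length beside them. CASAVA, Subread 1.4.3-p1, featureCounts and build mm10 are named, per the submitters' processing notes. Which annotation and strand setting served for counting is not given in the sources used here. Of 27179 identifiers, 25275 matched a symbol in RefSeq, whose assembly GRCm38.p6 is mm10 and which also gave the promoter sequences.

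R 4.3.3, edgeR 4.0.16, limma 3.58.1 and DESeq2 1.42.0 were used. The filter filterByExpr over 6 groups left 13794 genes, and libraries were scaled by TMM. Quasi-likelihood F tests of edgeR (glmQLFit, robust=TRUE) were run over all of them, with p-values adjusted by Benjamini and Hochberg per comparison and a call at an adjusted p under 0.05. A model with 6 group means (2 residual degrees of freedom) gave the comparisons within subsets, between subsets and of effects. A model with subset and genotype as added terms (4 residual degrees of freedom) gave the genotype effect over 3 subsets. Groups with 1 library were assumed to vary like the replicated groups. The fits of Ezh2-KO against WT in CD44+ NK1.1- cells and over 3 subsets were tested on simulated data first. Those data had no subset differences and the same spread in every gene and library. The other comparisons were not tested in this way.

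Named are the 7 members, Ezh2, from each list the called genes or up to 4 with the smallest p, and the 3 genes most like each member with a mean of at least 4 log2 CPM. Some genes that meet these rules are not reported here. Marker genes and uncalled genes outside that rule were named after their values were seen. Members, lists and tests were chosen with earlier results of these data known. Alternatives were DESeq2 size factors, library size, no filter, a minimum of 1 CPM in 2 libraries, limma-voom, the Wald test of DESeq2 and robust=FALSE. Others were the 4 CD44+ NK1.1- libraries alone, the mean of the 3 effects, and single genotypes. Single libraries were also left out in turn. In the model of group means these were the CD44+ NK1.1- libraries only, and in the model with added terms each library. The counts and medians of the lists without each WT CD44+ NK1.1- replicate were added after seeing the data, and those counts are not reported here.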

Additional observations from a re-analysis of the deposited data

How the results depend on the processing

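Of 777 member values under alternatives, 688 kept their direction and side of the threshold, 47 passed it in the alternative only, 26 lost it and 16 turned sign. Id2, Id3, Lef1 and Tcf7 were called between CD44+ NK1.1+ cells and each other subset in every alternative run. The CD44+ NK1.1+ and CD44- NK1.1- libraries were not left out in turn in those comparisons. Turned signs were all of small values. Tcf12 was 0.026 in Ezh2-KO against WT CD44- NK1.1- cells with library size. In WT libraries alone Tcf3 was 0.13 between CD44+ NK1.1- and CD44- NK1.1- cells and 0.052 between CD44+ NK1.1+ and CD44- NK1.1- cells, and in Ezh2-KO libraries alone 0.029 between CD44+ NK1.1+ and CD44+ NK1.1- cells, where Tcf4 was -0.10. Tcf4 over 3 subsets was -0.023 as the mean of 3 effects. With 1 library left out, Tcf12 in Ezh2-KO against WT CD44+ NK1.1- cells ran over -0.11 to 0.26 and Tcf4 over 3 subsets over -0.054 to 0.19. Tcf3 ran over -0.080 to 0.056 between CD44+ NK1.1- and CD44- NK1.1- cells and -0.087 to 0.049 between CD44+ NK1.1+ and CD44+ NK1.1- cells. For the differences of effects, Id3 ran over -0.63 to 0.15 and Tcf3 over -0.039 to 0.23 (CD44+ NK1.1+), and Tcf12 over -0.29 to 0.076 (CD44- NK1.1-).

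Counts of called genes moved more. For Ezh2-KO against WT in CD44+ NK1.1+ cells (131) they were 233 with no filter, 198 with DESeq2 and 32 with limma-voom, and in CD44- NK1.1- cells (33) 87, 95 and 17. For the differences of effects (0 and 3) they were 1 and 24 with no filter, 24 and 28 with DESeq2, and the second was 1 with the CPM filter. The mean of 3 effects gave 951, against 1561 over 3 subsets. WT alone gave 1416 genes between CD44+ NK1.1+ and CD44+ NK1.1- cells and 2052 between CD44+ NK1.1+ and CD44- NK1.1- cells, and Ezh2-KO alone 2565 and 2118. Ezh2-KO alone gave 68 between CD44+ NK1.1- and CD44- NK1.1- cells. There DESeq2 called 2 members and either genotype alone 0, against 1, and DESeq2 called 1 member in each comparison with 1 library a side, Tcf7 in CD44+ NK1.1+ and Id2 in CD44- NK1.1- cells, against 0. Library size alone changed the split of called genes between CD44+ NK1.1+ and CD44+ NK1.1- cells to 1533 higher and 3294 lower, against 2262 and 2217, between CD44+ NK1.1+ and CD44- NK1.1- cells to 1651 and 3328, against 2206 and 2232, and over 3 subsets to 1046 and 490, against 887 and 674.

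Leaving out 1 library gave 101 to 5792 genes and 0 to 5 members in CD44+ NK1.1- cells, 489 to 2794 genes and 0 to 4 members over 3 subsets, 83 to 4394 genes and 0 to 6 members between CD44+ NK1.1- and CD44- NK1.1- cells, 1519 to 8585 genes and 4 to 5 members between CD44+ NK1.1+ and CD44+ NK1.1- cells, and 2167 to 8661 genes and 4 to 6 members between CD44+ NK1.1+ and CD44- NK1.1- cells. For Ezh2-KO against WT it gave 25 to 2437 genes and 0 to 4 members in CD44+ NK1.1+ cells and 1 to 2486 genes and 0 to 2 members in CD44- NK1.1- cells. For the differences of effects it gave 0 to 2634 genes and 0 to 4 members, and 1 to 3063 genes and 0 to 3 members. In the model of group means only the CD44+ NK1.1- libraries were left out. High counts came there without a WT replicate, when the spread came from the Ezh2-KO pair alone, and low ones without an Ezh2-KO replicate. No paired analysis was possible because the columns carry no replicate numbers. Depth limited Tcf4, with 63 to 121 reads a library.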
